A study of Mus musculus with 11 samples.

Results

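The genes described here encode 10 proteins that neutrophils store in their granules: the primary (azurophil) granule genes Mpo, Elane, Prtn3 and Ctsg, the secondary (specific) granule genes Ltf, Camp, Ngp and Lcn2, and 2 further granule-associated genes, Fcnb and Chil3. They are 10 of the 54232 genes counted by RNA sequencing in mouse pancreatic tumours, and all 10 were found by symbol. The set was drawn up because Fcnb stood among the strongest differences between the genotypes in these same tumours, so the KO against WT values of the set are a description and carry no test.

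TB32048 mouse pancreatic carcinoma cells, which keep an intact Pkn2 gene, were injected into the pancreas (1000 cells a mouse), and the tumours that grew were compared between host genotypes. The study asked how loss of protein kinase N2 (PKN2) in the host stroma alters the tumour, and bulk RNA was taken from a portion of each tumour. KO hosts (6 tumours, A to F) were Pkn2 fl/fl; RosaCreERT2 +/WT and WT hosts (5 tumours, A to E) were Pkn2 +/+; RosaCreERT2 +/WT. All were adult female C57BL/6 mice, and both groups received tamoxifen. The Cre recombinase is expressed from the ubiquitous Rosa26 locus, so that by design deletion was not limited to fibroblasts. The paper describes the targeting as systemic and reports penetrant deletion, citing a blot of PKN2 protein in the pancreas. Deletion in blood and bone marrow cells was not measured in these data. The same letter in the 2 groups belongs to different animals.

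Granules are filled in the bone marrow in a fixed order. Primary granule proteins are made by promyelocytes, specific granule proteins by the later myelocytes and metamyelocytes, and circulating neutrophils have largely stopped making these mRNAs while still carrying the proteins. In tumours, transcripts of mature neutrophils are therefore usually followed through other genes, such as S100a8, S100a9 and Cxcr2. Lcn2 is also made by stressed epithelium and Chil3 by monocytes and macrophages. In bulk RNA, fewer cells of a type and less RNA per cell cannot be told apart.

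The promoters of these genes are known targets of C/EBP, PU.1 and RUNX family factors. RefSeq promoters (GRCm38.p6, from 250 bases before to 50 bases after the RefSeq start of the gene) were found for all 10 genes and searched on both strands for TTGCNNAA (C/EBP-like), GAGGAA (PU.1-like) and TGTGGT (RUNX-like). RefSeq starts can differ from the GENCODE M21 starts given below, and the Prtn3 and Lcn2 windows lie wholly inside the GENCODE gene. All 4 primary granule promoters held GAGGAA, which also stood in those of Ltf and Lcn2 (6 of 10, against 28.3% of 27025 promoters searched), and none of the 4 held TTGCNNAA. TTGCNNAA was found in Ltf, Ngp, Lcn2 and Fcnb (4 of 10, against 10.8% of all promoters), and TGTGGT in Ctsg and Ltf (2 of 10, against 16.9%). Ltf held all 3 and Camp and Chil3 none. The following 4 stretches of 150 bases, from RefSeq's GRCm38.p6 sequence, end just before the GENCODE M21 start of each gene and are shown to contrast a primary granule promoter with 2 secondary granule promoters and with Fcnb. They are written 5′ to 3′ on the strand of the gene, and capitals mark GAGGAA or TTGCNNAA on either strand. A match of letters is a description and not a binding site.
Elane, chr10:79886097-79886246, plus strand: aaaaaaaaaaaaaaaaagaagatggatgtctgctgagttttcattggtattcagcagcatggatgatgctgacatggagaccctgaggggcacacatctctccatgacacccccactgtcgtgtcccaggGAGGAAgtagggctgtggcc
Ltf, chr9:111019121-111019270, plus strand: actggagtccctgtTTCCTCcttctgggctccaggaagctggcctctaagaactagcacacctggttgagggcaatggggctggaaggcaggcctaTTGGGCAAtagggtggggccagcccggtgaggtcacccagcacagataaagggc
Ngp, chr9:110419597-110419746, plus strand: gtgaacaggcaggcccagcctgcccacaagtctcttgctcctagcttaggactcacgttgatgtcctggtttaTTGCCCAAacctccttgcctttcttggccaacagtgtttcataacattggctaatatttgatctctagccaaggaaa
Fcnb, chr2:28084886-28085035, minus strand: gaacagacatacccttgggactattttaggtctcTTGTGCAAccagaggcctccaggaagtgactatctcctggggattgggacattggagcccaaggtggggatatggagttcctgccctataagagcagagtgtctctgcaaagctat

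Libraries held between 16294128 and 31121422 counts, and levels are given in CPM, that is, as counts relative to the TMM-scaled size of the library. A level of 3 counts, used as the detection floor, was worth 0.0883 to 0.25 CPM depending on the library, a limit that covers counting error only. Ribosomal RNA genes took 6.39% of the counts of WT B, 1.31% and 1.4% of those of WT A and C, and 0.241% to 0.765% of those of the other 8 tumours. Pkn2 itself was at 80 to 108 CPM in KO and 62.8 to 138 CPM in WT tumours, a difference of -0.00 on the log2 scale (SE 0.21, edgeR adjusted p = 0.996), and since the carcinoma cells keep the gene these counts do not check the genotype. Keratin and collagen genes, which mark carcinoma cells and fibroblasts, were expressed in every tumour. The labels name no sequencing batch, so values within batches could not be given. Of the tumours, KO F and WT B stood apart most for the granule genes, as described below, and values without them are given for several results.

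All 10 granule genes were higher in mean in KO than in WT tumours, with log2 fold changes from 1.50 (Lcn2) to 5.84 (Fcnb) and a median of 4.22, where the median over the 16536 genes tested was -0.03. All 10 passed the filter on low counts. WT tumours held only 1 to 8 counts of Fcnb, so that gene passed through the KO tumours. The lowest WT counts of Mpo, Elane and Ctsg were 2, 0 and 4, and these genes too needed the KO tumours to pass. At an adjusted p under 0.05, edgeR called 0 of the 10, where it called 0.0181% of all genes tested higher in KO. At an unadjusted p under 0.05 the count was 10 of 10, against 8.57% of all genes. DESeq2 at an adjusted p under 0.05 called 9, all but Ctsg, against 3.19%. In 3 of the 10 (Mpo, Fcnb and Chil3) every KO tumour lay above every WT tumour, which held for 1.59% of all genes. These counts come from the contrast by which the set was chosen, so nothing is read from them.

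KO F differed from the other KO tumours. It was the lowest KO tumour for 9 of the 10 genes and lay within the WT range for 7. KO A to E lay above every WT tumour in 8 of the 10 genes, the exceptions being Ctsg and Lcn2. Without KO F the median log2 fold change was 4.45, and without WT B, the highest WT tumour for 6 of the genes, it was 5.07. The sum of the 10 genes was 159 CPM in KO F, between 615 and 1992 CPM in KO A to E, 195 CPM in WT B and between 45.7 and 126 CPM in the other WT tumours.

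**Figure D1:**
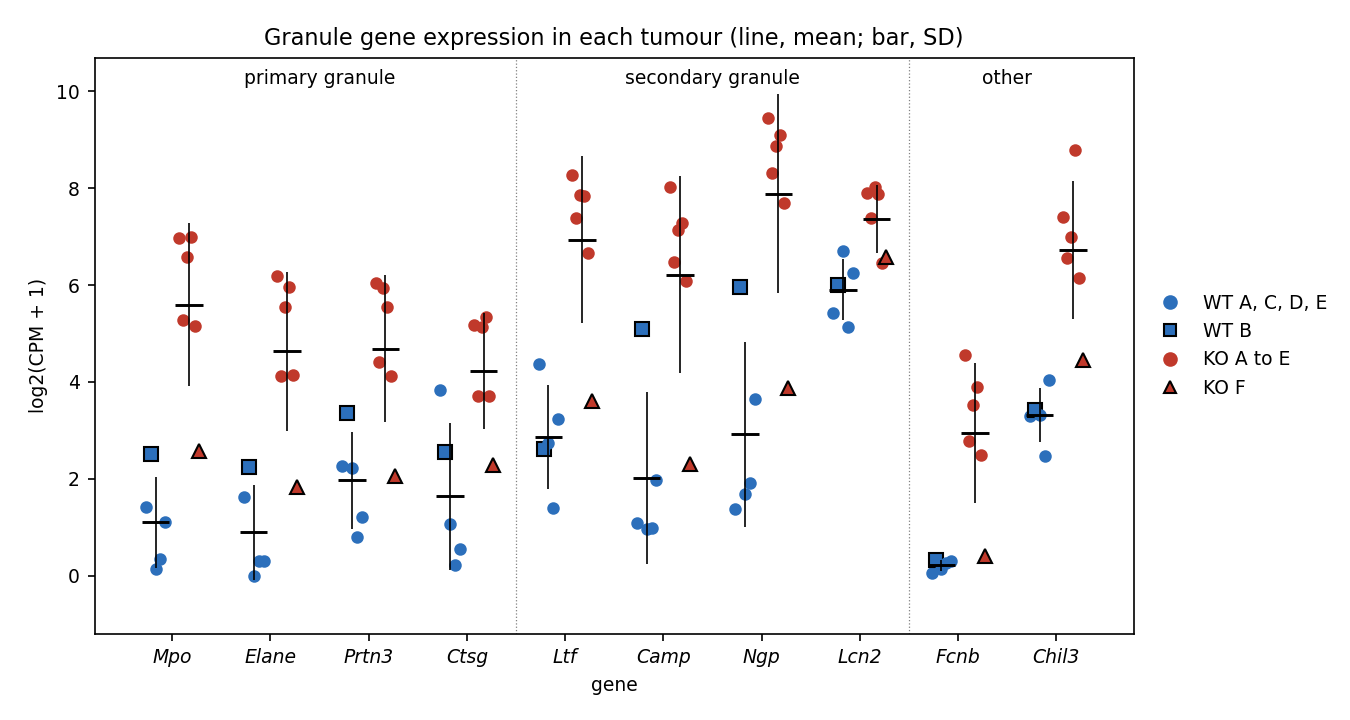
Expression of the 10 granule genes in each tumour, as log2(CPM + 1). Points are tumours (red, KO; blue, WT), the short horizontal line is the group mean and the vertical bar the SD (KO n = 6, WT n = 5). KO F (triangle) sits below the other KO tumours for every gene but Lcn2, and WT B (square) is the highest WT tumour for Ngp and Camp.

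Among the primary granule genes, Mpo (ENSMUSG00000009350, GRCm38 chr11:87793581-87804413, plus strand) encodes myeloperoxidase, which makes hypochlorous acid from hydrogen peroxide. In KO A to F its level was 124, 38.1, 95, 126, 34.6 and 4.95 CPM. In WT A to E it was 1.65, 4.67, 0.0982, 0.274 and 1.15 CPM. The groups did not overlap, although KO F exceeded WT B by little. Means were 70.5 ± 51.4 CPM in KO (SD, n = 6) and 1.57 ± 1.85 CPM in WT (SD, n = 5), a log2 fold change of 5.59 (SE 0.98), and of 6.45 without WT B. The lowest WT value, in WT C, rests on 2 counts.

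Elane, Prtn3 and Ctsg encode neutrophil elastase, proteinase 3 and cathepsin G, serine proteases that are stored active in the primary granule. Elane (ENSMUSG00000020125, chr10:79886247-79888215, plus strand) and Prtn3 (ENSMUSG00000057729, chr10:79874476-79883174, plus strand) are neighbours on chromosome 10. Elane had a lowest, median and highest level of 2.54, 31.4 and 71.6 CPM in KO tumours, and was at 2.08, 3.75, 0, 0.235 and 0.236 CPM in WT A to E. Only KO F fell inside the WT range, below WT B, and WT C had no Elane count, which allows up to 0.147 CPM. The log2 fold change was 4.94 (SE 1.08), and 5.83 without WT B.

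Prtn3 ranged from 3.14 CPM in KO F to 65.1 CPM in KO A, with a median of 33.1 CPM, and was at 3.81, 9.25, 3.68, 0.743 and 1.32 CPM in WT A to E. KO F lay below 3 of the 5 WT tumours, and the log2 fold change was 3.26 (SE 0.78), or 3.89 without WT B. Ctsg (ENSMUSG00000040314, chr14:56099881-56102574, minus strand) had KO levels of 3.9, 23.1 and 39.6 CPM (lowest, median and highest) against 13.3, 4.83, 1.08, 0.157 and 0.471 CPM in WT A to E. WT A, highest for Ctsg, was above KO B (12 CPM), KO E (12.1 CPM) and KO F. Its log2 fold change of 2.54 (SE 0.94) was the lowest of the class, and was 3.92 without WT A.

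Among the secondary granule genes, Ngp (neutrophilic granule protein, ENSMUSG00000032484, chr9:110419747-110423012, plus strand) had the highest level per kilobase of exon in KO tumours. KO A to F held 700, 319, 465, 549, 206 and 13.7 CPM. WT A to E held 1.6, 61.5, 2.21, 2.74 and 11.5 CPM. KO F was thus below WT B, and every other KO tumour exceeded every WT tumour. The log2 fold change was 4.58 (SE 1.14), and 6.36 without WT B.

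Camp (ENSMUSG00000038357, chr9:109847379-109849617, minus strand) encodes the precursor of the antimicrobial peptide CRAMP, and Ngp belongs to the same cathelicidin-related family. Camp was at 258, 88.2, 140, 155, 66.7 and 3.94 CPM in KO A to F. WT B had 33.1 CPM, and WT A, C, D and E had 1.13, 0.933, 0.978 and 2.91 CPM. The KO tumours kept the same order as for Ngp. The log2 fold change was 3.98 (SE 1.15) and 6.28 without WT B.

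Ltf (ENSMUSG00000032496, chr9:111019271-111042767, plus strand) encodes lactoferrin, an iron-binding protein. Its lowest, median and highest KO levels were 11.2, 198 and 309 CPM, and WT A to E were at 19.7, 5.08, 5.69, 1.64 and 8.39 CPM. Here WT A, not WT B, was the highest WT tumour and the only one above KO F. The log2 fold change was 4.43 (SE 0.79), and 5.06 without WT A.

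Lcn2 (ENSMUSG00000026822, chr2:32384633-32388252, minus strand) encodes lipocalin 2, which binds bacterial siderophores. KO A to F were at 238, 166, 261, 234, 87.2 and 94.1 CPM. WT A to E were at 42.2, 63.2, 104, 34.2 and 75.2 CPM. WT C lay above KO E and KO F. Means were 180 ± 76.2 CPM in KO (SD, n = 6) and 63.7 ± 27.7 CPM in WT (SD, n = 5), and the log2 fold change, 1.50 (SE 0.36), was the smallest of the set. It was also the only gene of the set whose lowest KO tumour was KO E.

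Fcnb (ENSMUSG00000026835, chr2:28076378-28084885, minus strand) encodes ficolin B, a lectin of myeloid cells that starts complement activation. Its KO levels were 22.5, 5.82, 10.5, 13.9, 4.62 and 0.322 CPM in A to F, from 644, 166, 303, 343, 114 and 8 counts. WT A to E had 1, 3, 2, 5 and 8 counts, or 0.0433 to 0.25 CPM, so that 3 of the 5 WT tumours were at or below the floor of 3 counts. KO F exceeded the highest WT tumour by 0.322 to 0.25 CPM, on 8 counts against 3. The log2 fold change was 5.84 (SE 0.91), ninth by size among the genes tested, and with WT this close to 0 its value depends on the fit.

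Chil3 (ENSMUSG00000040809, chr3:106147554-106167564, minus strand) encodes the chitinase-like protein Ym1. KO A to F were at 169, 93.4, 127, 440, 69.5 and 21 CPM, and WT A to E at 8.88, 9.75, 8.98, 4.54 and 15.4 CPM. No KO tumour overlapped the WT range, and KO D was well above the other KO tumours. The log2 fold change was 4.01 (SE 0.66), and 3.33 without KO D.

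Per kilobase of exon, which allows levels of different genes to be compared, Ngp was the highest of the set in KO tumours (307 ± 203 CPM per kb, SD, n = 6), followed by Camp (156 ± 115), Chil3 (93.9 ± 91.4), Lcn2 (68.7 ± 29.1) and Ltf (50.7 ± 30.8). The 4 primary granule genes came next, with Elane at 36.3 ± 28.3, Ctsg at 22.1 ± 14.7, Mpo at 20.6 ± 15 and Prtn3 at 20.3 ± 14.7 CPM per kb, and Fcnb was lowest (7.19 ± 5.9). Each mean differed from the next in this order by less than the SD of the higher gene. In WT tumours Lcn2 was first, at 24.3 ± 10.6 CPM per kb (SD, n = 5), and Ngp second, at 13 ± 21.1.

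The proportion of primary to secondary granule transcripts was compared between tumours in CPM, a measure that depends on gene length and is used only within a gene set. Summed over the 8 genes of both classes, primary granule genes made up 10.5% to 19% in KO tumours (median 15.6%). In WT tumours they made up 24.4% in WT A, 12.1% in WT B and 3.14% to 4.14% in WT C, D and E. The KO shares lay close together in this measure. The summed level differed between KO tumours from 14.5 to 296 CPM for the primary and from 123 to 1504 CPM for the secondary granule genes. Lcn2 supplied most of the secondary sum in KO F (94.1 of 123 CPM) and in WT tumours other than WT B. The share in those tumours therefore rests largely on Lcn2, and a constant proportion of the classes cannot be read from it. Mpo equalled 103% of Ngp in WT A, the tumour with the lowest Ngp level, against 4.44% to 10% in WT B to E. It equalled 11.9% to 23% in KO A to E and 36.1% in KO F.

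Variation among the KO tumours was not used in choosing the genes, and was examined next. Over the 6 KO tumours all 45 pairs of the 10 genes were positively correlated in log2(CPM + 1), with Pearson r from 0.755 to 0.999 and Spearman rho from 0.6 to 1. By exact two-sided permutation over 720 pairings, with adjustment over the 45 pairs, 44 pairs passed 0.05 for r, with adjusted p from 0.00735 (for Mpo and Ngp among others) to 0.0384 (Elane and Lcn2), and 32 passed for rho. Lcn2 and Chil3 were the pair that did not pass for r (adjusted p = 0.05 by exact permutation). The smallest p such a test can give is 0.00139 for r and 0.00278 for rho. KO F sets much of the range, so r was also computed without it: over the other 5 KO tumours, too few for a test, it ran from 0.619 to 0.993. Without the 2 tumours farthest from the median, r was positive for all 45 pairs (median 0.907, from 0.364 for Ltf and Chil3 to 0.997). The WT group has 5 tumours, under the minimum for a test.

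Within the primary granule class the 6 pairs had r from 0.978 to 0.996. Mpo and Elane had r = 0.996 (exact permutation, adjusted p = 0.0114, n = 6) and rho = 0.886 (exact permutation, adjusted p = 0.0469), and r = 0.994 without KO D and KO F. Within the secondary class the 6 pairs ranged from 0.755 to 0.999, with Camp and Ngp at r = 0.997 and Ltf and Ngp at r = 0.999. The 16 pairs between the classes had r from 0.832 to 0.973. Mpo and Ngp, the genes of each class with the highest mean KO level in CPM, had r = 0.972 (exact permutation, adjusted p = 0.00735, n = 6), rho = 0.943 (adjusted p = 0.0326 by exact permutation), and r = 0.945 without 2 tumours. The 9 pairs with Lcn2 had r from 0.755 to 0.874, of which 8 passed for r and 2 for rho, whereas the other 36 had r from 0.863 to 0.999, and 36 passed for r and 30 for rho. Whether the pairs with Lcn2 differ from the others was not tested.

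**Figure D2:**
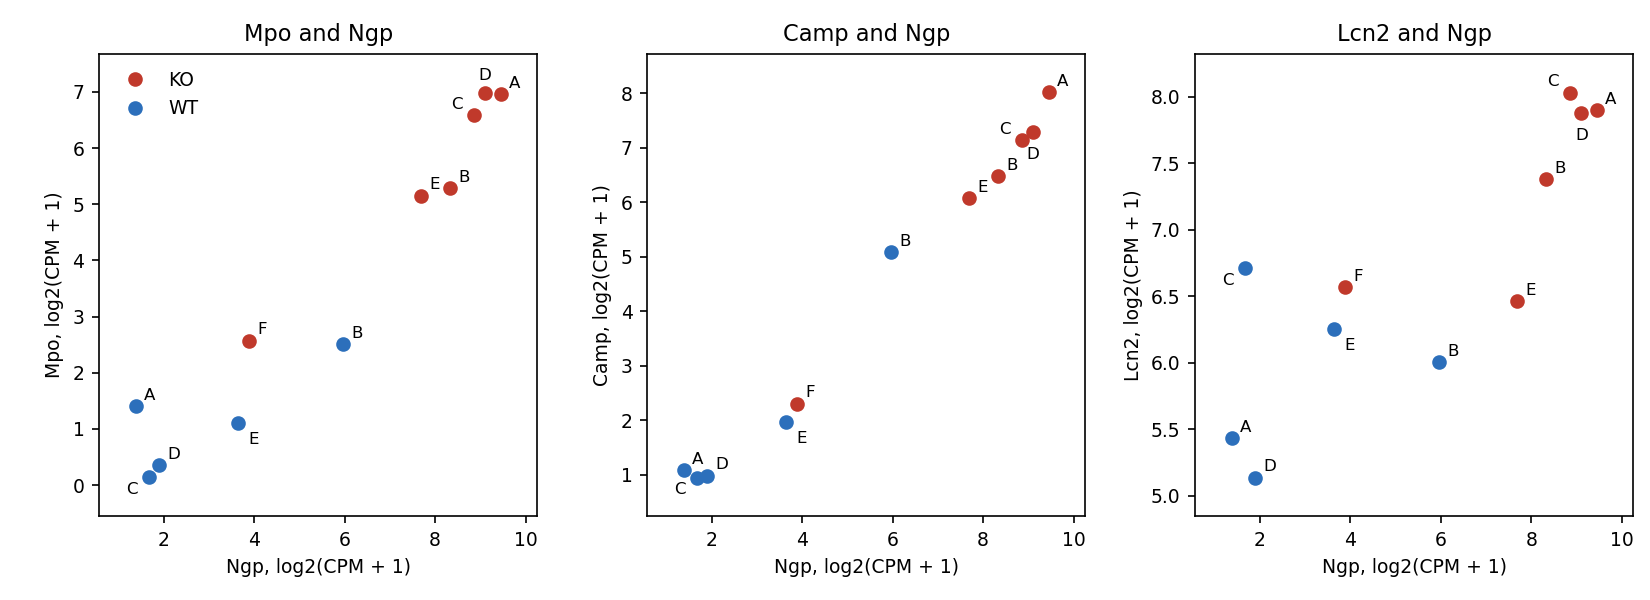
Mpo, Camp and Lcn2 against Ngp, each as log2(CPM + 1), 1 point per tumour (red, KO; blue, WT; letters are replicates). Over the 6 KO tumours r with Ngp is 0.972 for Mpo, 0.997 for Camp and 0.762 for Lcn2, and without KO F it is 0.94, 0.977 and 0.912. WT C is high in Lcn2 at a low Ngp level.

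Other genes of the granule pathway were then counted from lists written with earlier results of these data known, each set against the -0.03 median over all genes. In none of these lists, nor in the cell type lists that follow, did edgeR call a gene in either direction at an adjusted p under 0.05. At an unadjusted p under 0.05, 15.5% of all genes tested were lower in KO, beside the 8.57% that were higher. Of 7 tested genes of other primary granule cargo, processing and inhibitors, 3 had an unadjusted p under 0.05, all higher in KO, with a median log2 fold change of 0.01. Prss57, a serine protease of the same granule, was at 0.443 to 4.16 CPM in KO and 0.0491 to 0.417 CPM in WT tumours without overlap (log2 fold change 3.49, SE 0.66; adjusted p = 0.0663 in edgeR). Ctsc, the dipeptidyl peptidase that activates Elane, Prtn3 and Ctsg, had a value of 0.83 (SE 0.26; adjusted p = 0.106 in edgeR), with its highest level in KO F. Slpi, an inhibitor of elastase, had 1.83 (SE 0.70), the granule membrane gene Cd63 had -0.33 (SE 0.34), and Lyz2, lysozyme, which macrophages also make, had -0.12 (SE 0.31). Bpi did not pass the filter, at 0 to 0.105 CPM.

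Of 15 other specific and gelatinase granule genes, 10 had an unadjusted p under 0.05 with a higher and 1 with a lower KO level, and the median log2 fold change was 0.91. In 5 of them every KO tumour was above every WT tumour, against 1.59% of all genes tested. Itgb2l, an integrin of neutrophils, was at 0.845 to 16.5 CPM in KO and 0.173 to 0.75 CPM in WT (log2 fold change 4.50, SE 0.70, edgeR adjusted p = 0.0605). Mmp8, neutrophil collagenase, was at 4.91 to 38.3 CPM against 1.53 to 4.56 CPM (3.11, SE 0.51, edgeR adjusted p = 0.0607). Chil1, a chitinase-like protein of the specific granule, had 2.28 (SE 0.44, edgeR adjusted p = 0.0663), and Cd177, a neutrophil surface protein, 3.28 (SE 0.74, edgeR adjusted p = 0.0786). The NADPH oxidase subunits differed in sign, with Cybb, another of the 5 without overlap, at 1.28 (SE 0.30) and Cyba, the one with a lower KO level at an unadjusted p under 0.05, at -0.71 (SE 0.32). Values of the other specific granule genes reached down to 0.50 (SE 0.84) for Olfm4, olfactomedin 4, and -0.22 (SE 0.42) for Pglyrp1, a peptidoglycan-binding protein.

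Regulators of granulocyte precursors gave 4 of 10 with an unadjusted p under 0.05, all higher in KO, with a median of 0.56. Ms4a3, a membrane gene of granulocyte-monocyte progenitors, had 0.282 to 20.8 CPM in KO and 0 to 3 CPM in WT (log2 fold change 3.90, SE 1.20, edgeR adjusted p = 0.105). Myb, a factor of proliferating progenitors, did not overlap between genotypes (2.12, SE 0.44, edgeR adjusted p = 0.0764), and neither did Gfi1, a repressor needed for neutrophil commitment (0.94, SE 0.29, edgeR adjusted p = 0.103). Cebpe, the factor required for secondary granules, was at 15.1, 6.6, 9.49, 12.6, 4.83 and 3.22 CPM in KO A to F and at 0.587 to 4.5 CPM in WT (1.85, SE 0.50, edgeR adjusted p = 0.0925). Only KO F lay within its WT range. Of the factor families named for the promoters, Cebpa had 0.34 (SE 0.17), Cebpd -0.24 (SE 0.28), Spi1, which encodes PU.1, 0.15 (SE 0.25), and Runx1 0.08 (SE 0.18).

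**Figure D3:**
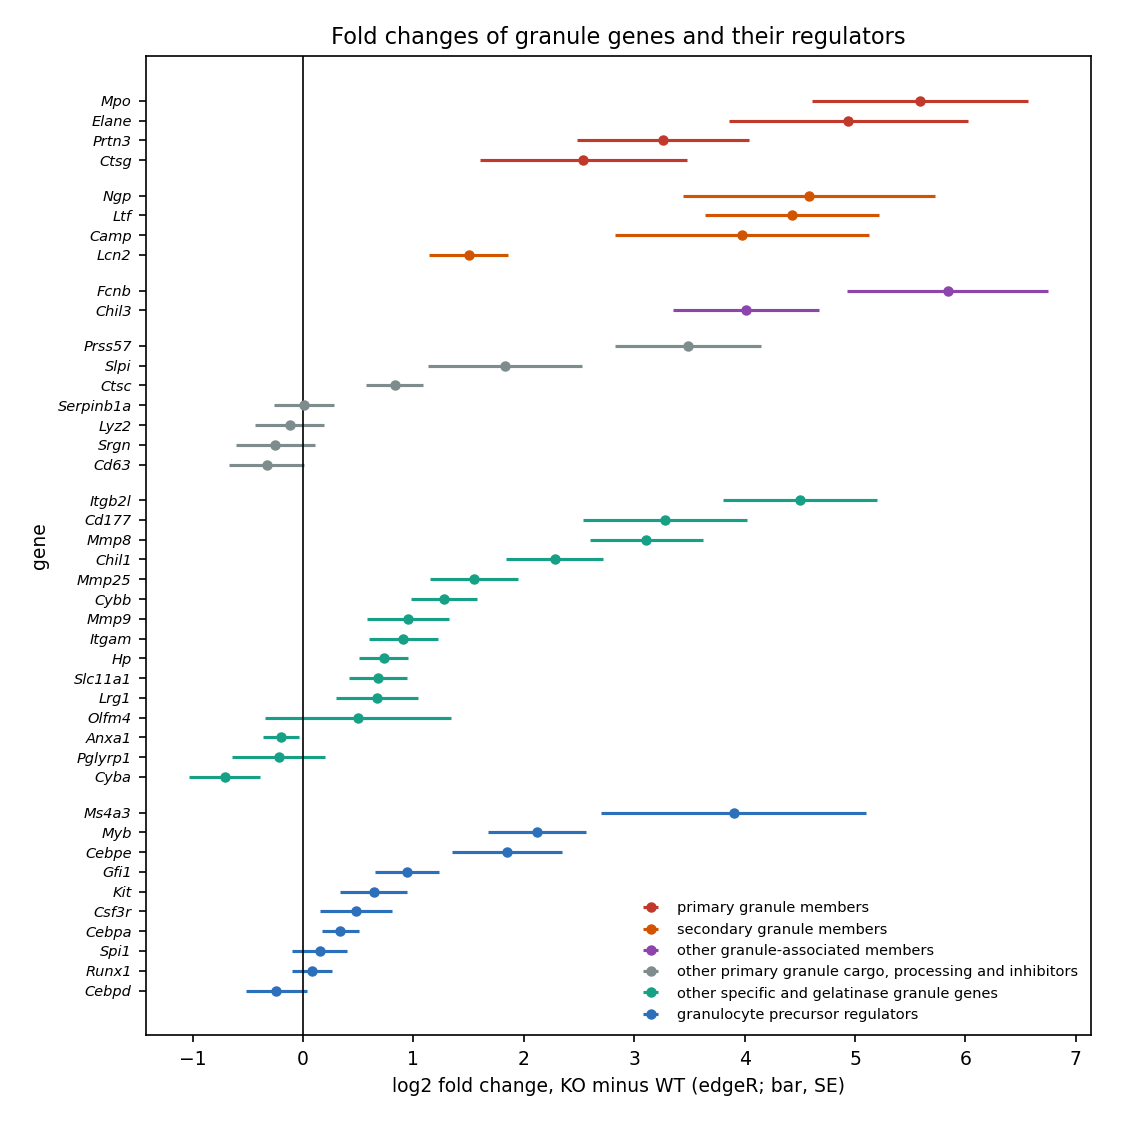
Log2 fold change, KO minus WT, of the 10 granule genes by class and of the tested genes of the 3 related lists (edgeR, all 11 tumours; bars are SE). The 10 genes span 1.50 to 5.84, Itgb2l, Ms4a3 and Prss57 lie within that span, and Lyz2, Spi1 and Runx1 lie near 0.

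Levels of mature neutrophil markers were given beside the granule genes. Of 10 such genes, 5 had an unadjusted p under 0.05, all higher in KO, 9 were higher in mean, and the median log2 fold change was 1.02. Their summed level was 253 to 2241 CPM in KO tumours, lowest in KO F, and 128 to 1072 CPM in WT tumours. S100a8, a calcium-binding protein abundant in mature neutrophils, was at 758, 332, 732, 471, 215 and 44.8 CPM in KO A to F. In WT A to E it was at 93.3, 410, 73.3, 31.7 and 43.6 CPM, so that WT B lay above KO B, E and F. Its KO minus WT value was 1.71 (SE 0.75; adjusted p = 0.187 in edgeR). S100a9, its partner, had 2.20 (SE 0.69, edgeR adjusted p = 0.107), Ly6g, the surface antigen of mouse neutrophils, 2.99 (SE 0.88, edgeR adjusted p = 0.0991), and Padi4, which citrullinates histones, 2.03 (SE 0.45, edgeR adjusted p = 0.0786). The chemokine receptor Cxcr2 had 0.75 (SE 0.41) and Retnlg 1.28 (SE 0.59). Of the remaining markers, Stfa2l1 had 0.56 (SE 0.58), Trem1 0.20 (SE 0.32) and Il1r2 0.19 (SE 0.32). Clec4d went the other way, at -0.78 (SE 0.53).

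Set against S100a8 in the same tumour, Ngp amounted to 63.6% to 117% in KO A to E and 30.6% in KO F, compared with 15% in WT B, 26.4% in WT E and 1.72% to 8.63% in WT A, C and D. Mpo amounted to 11% to 26.8% of S100a8 in the KO group, against 0.134% to 2.64% in the WT group. Whether the genotypes overlapped depended on the marker. Over the 10 mature neutrophil markers the ratio of Ngp was without overlap for 2 (S100a8 and S100a9), and that of Mpo for 7. With KO F left out, these numbers were 8 and 9. Against Padi4, Ngp was at 550% in KO F and reached 2050% in WT B. These ratios use genes chosen on the same contrast and are given without a test.

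**Figure D4:**
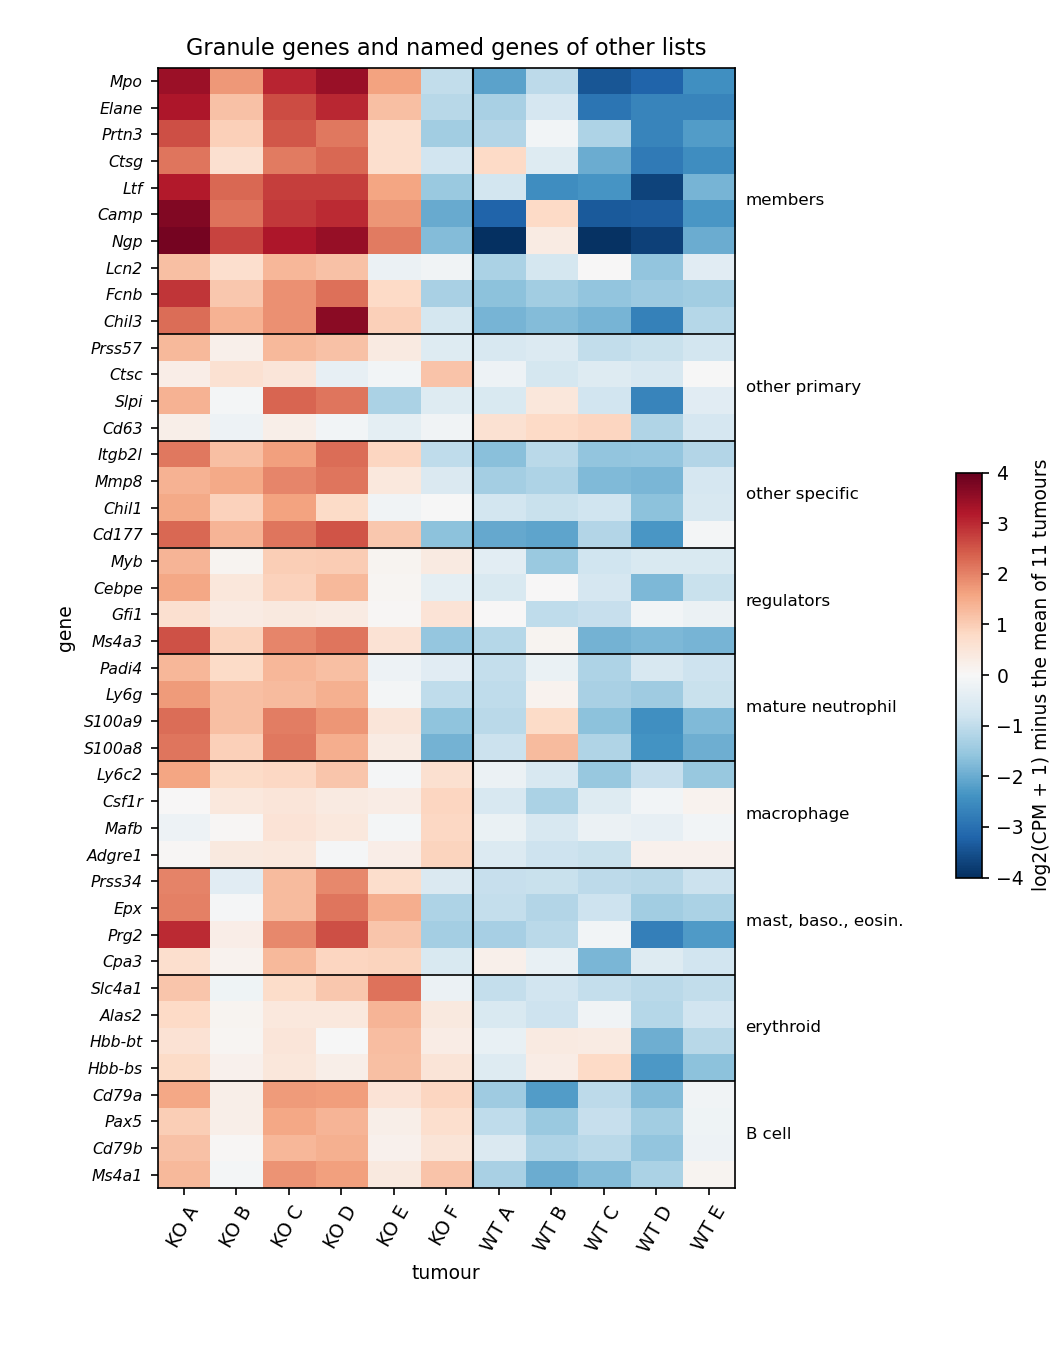
Log2(CPM + 1) minus the mean over 11 tumours for the 10 granule genes and the genes named from 8 other lists (columns, tumours; red, above the mean; blue, below it). Mpo, Ngp and S100a9 are higher in KO A, C and D than in the other KO tumours and lowest of KO in KO F, and Ctsc and Csf1r are highest in KO F.

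Markers of other cells were counted in the same way. Of 12 monocyte and macrophage genes, 6 had an unadjusted p under 0.05, all higher in KO, with a median log2 fold change of 0.59 and a summed level of 2340 to 4259 CPM in KO and 1765 to 2890 CPM in WT. KO F had the highest sum, although Ly6c2 was highest in KO A, at 63.3 CPM against 33 CPM in KO F. Ly6c2, a marker of inflammatory monocytes, did not overlap between genotypes (1.87, SE 0.33, edgeR adjusted p = 0.0663), and Csf1r had 0.83 (SE 0.24, edgeR adjusted p = 0.0967). Of 5 genes of alternatively activated macrophages, the cells for which Chil3 is often used as a marker, 1 (Clec10a) had an unadjusted p under 0.05 with a higher KO level, and the median was -0.59. Arg1 had -0.59 (SE 0.44), Retnla -0.74 (SE 0.48) and Chil4, a paralog of Chil3, -1.47 (SE 1.30). Reads that align equally well to both paralogs were not counted, so their levels are less certain than those of the other genes. The summed level of the list was 87.5 to 254 CPM in KO and 112 to 301 CPM in WT.

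Of 12 mast cell, basophil and eosinophil genes, 6 had an unadjusted p under 0.05 and all 6 were higher in KO (median 0.89). Their summed level overlapped, at 31.5 to 136 CPM in KO and 24.4 to 145 CPM in WT. Among them were the eosinophil granule genes Prg2, major basic protein, and Epx, eosinophil peroxidase, a close relative of Mpo. Prg2 was at 55.1, 7.68, 25.8, 41.3, 14.4 and 1.81 CPM in KO A to F and at 0.0783 to 5.64 CPM in WT (log2 fold change 3.56, SE 0.95, edgeR adjusted p = 0.0909). Epx had 0.121 to 10.6 CPM against 0 to 0.491 CPM (4.68, SE 1.01, edgeR adjusted p = 0.0786), and Prss34, a basophil protease, 0.443 to 7.49 CPM against 0 to 0.177 CPM (5.11, SE 0.93, edgeR adjusted p = 0.0663). KO F was the lowest KO tumour for each of these 3 genes. Of the 12 genes, 11 had a positive log2 fold change. The exception was Mcpt8, another basophil protease, at 15.7 ± 13.6 CPM in KO (SD, n = 6) and 30.2 ± 40.1 CPM in WT (SD, n = 5). Its log2 value was -0.94 (SE 0.82). Siglecf, an eosinophil surface receptor, differed little, at 0.06 (SE 0.30).

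Of 8 B cell genes, all had an unadjusted p under 0.05 with a higher KO level, and the median log2 fold change was 2.36. Their summed level was 38.1 to 116 CPM in KO and 6.67 to 37.1 CPM in WT, with KO F at 67.4 CPM. Cd79a, a subunit of the B cell receptor, had 2.62 (SE 0.48, edgeR adjusted p = 0.0663). Of 6 tested erythroid genes, 2 had an unadjusted p under 0.05, both higher in KO (median 0.93, summed level 57.7 to 145 CPM in KO and 9.47 to 101 CPM in WT), among them Slc4a1, the red cell anion exchanger, at 0.805 to 8.6 CPM in KO and 0 to 0.25 CPM in WT (5.21, SE 0.83, edgeR adjusted p = 0.0605). Of 3 tested platelet genes 0 were higher and 1, Pf4 (-1.41, SE 0.55), was lower at an unadjusted p under 0.05 (median -0.14, summed level 19.4 to 79.5 CPM in KO and 21.7 to 204 CPM in WT), and Gp1bb had no count in any tumour. The part of any of these cells in the granule gene values was not tested.

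Carcinoma markers were lower in mean in KO tumours in all 8 genes, of which 3 had an unadjusted p under 0.05 (median log2 fold change -0.62, summed level 2722 to 5612 CPM in KO and 3104 to 9473 CPM in WT). Fibroblast genes had 0 of 7 at an unadjusted p under 0.05 (median 0.41, summed level 4344 to 9346 CPM in KO and 2353 to 9268 CPM in WT). Acinar genes, which mark adjacent pancreas, were tested in 2 of 6 cases and ranged from 0.417 to 589 CPM in sum in KO and from 1.02 to 1645 CPM in WT. Their part in the granule gene values was not tested.

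The genes most like the granule set were sought among all other genes tested, by the Pearson r over the 11 tumours between each gene and the mean of the 10 genes, both after subtraction of the group means. The first 10 were Ankrd22 (r = 0.968), Ms4a3 (0.967), Igkv14-126 (0.967), Itgb2l (0.944), S100a9 (0.944), Ly6g (0.943), Far2 (0.941), Ighv11-2 (0.937), Ceacam10 (0.935) and Prss57 (0.934). Of these, Ms4a3, Itgb2l, S100a9, Ly6g and Prss57 belong to the neutrophil and precursor lists above. Igkv14-126 and Ighv11-2 are variable segments of immunoglobulin light and heavy chains, at 0.845 to 130 and 0.0403 to 54.5 CPM in KO and at 0.0982 to 6.17 and 0 to 1.17 CPM in WT tumours, with their lowest KO level in KO F. The ranking depended on the setting: 6 of these 10 genes stayed among the first 10 with a pseudocount of 0.1, 6 without WT B, and 3 without KO F (Ankrd22, Ms4a3 and Igkv14-126, with r of 0.907, 0.923 and 0.905). All points share the libraries, and r is given as a description.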

How the data were processed

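RNA from 11 tumours (6 KO, 5 WT, grouped by title) was analysed. Per the labels and methods, the authors demultiplexed reads with bcl2fastq 2.19, trimmed them with Trimmomatic, aligned them to mm10 (GRCm38) with HISAT2 2.1.0, and counted unique alignments by strand with HTSeq 0.11.2. The authors deposited raw counts per gene, and a normalised signal, which is the raw count divided by 1 factor per sample. No column was left unassigned.

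Counts were tested with edgeR 4.0.16 (R 4.3.3; quasi-likelihood, TMM, filterByExpr, Benjamini-Hochberg over 16536 genes, threshold 0.05), with DESeq2 1.42.0 and limma 3.58.1 (on the deposited signal, as log2 with a pseudocount of 1) as alternatives. CPM used TMM-scaled totals, and SE is the absolute log2 fold change over the square root of F. Symbols (54079 of 54232 genes) and exon lengths came from GENCODE M21. Scripts were tested on simulated data. The p-values measure the spread between these tumours.

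The genes and lists were chosen with earlier results of these data known. Genes named were all 10 of the set, up to 4 of each other list with the smallest unadjusted p, and the 10 most alike. Lyz2, Cybb, Cyba, Olfm4, Pglyrp1, Cebpa, Cebpd, Spi1, Runx1, Cxcr2, Retnlg, Stfa2l1, Trem1, Il1r2, Clec4d, Mcpt8 and Siglecf were named after their values were seen. Ahsp matched no symbol. Likeness without KO F or WT B, and ratios to each neutrophil marker, were added after seeing the data.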

Additional observations from a re-analysis of the deposited data

Results flagged for a closer look

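In 20 groups (10 genes in each genotype), 4 held a tumour whose distance to its nearest neighbour took up an unusually large part of the range of the group in log2(CPM + 1), where chance gives about 1 in 20 groups, or 1 here if the groups were independent. They are not, since 3 of the 4 are the same tumour in genes that vary together, so 4 is not a count beyond chance. KO F was far below the other KO tumours for 3 secondary granule genes. It was at 3.61 for Ltf, with the others between 6.67 and 8.28 (gap over range 0.656). For Camp it was at 2.31, with the others between 6.08 and 8.01 (0.661). For Ngp it was at 3.88, with the others between 7.69 and 9.45 (0.684). WT B was far above the other WT tumours for Camp, at 5.09 against 0.95 to 1.97 (0.754), and it is also the tumour with the highest share of ribosomal RNA.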

How the results depend on the processing

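The 10 granule genes kept a higher KO level under every alternative that could be fitted, with log2 fold changes from 1.34 to 7.23 over 181 values, of which 0 reversed and 8 moved by more than the spread between tumours. Their median, 4.22, was 5.37 with the replicate letter as a block (replicate block), 5.13 with ribosomal RNA share as a covariate, 5.58 with WT D and E as the only WT tumours, 4.24 by DESeq2, 4.57 by limma on the deposited signal and 3.88 to 5.07 with 1 tumour left out. The replicate block used only letters found in both groups and so also left out KO F, and the part of each change was not separated. The number of them called was less stable. It was 0 in the chosen design, 4 without a filter, 2 with the replicate block (Fcnb and Ltf), 9 by DESeq2, 4 by limma, and 0 to 8 with 1 tumour left out: 6 without WT D, 4 without KO F and 8 without WT E. Other granule genes called higher numbered 0, and 4 without a filter, 10 by DESeq2, 2 by limma, and 0 to 9 with 1 tumour left out (6 without WT D, 4 without KO F, 9 without WT E). Genes of the set with every KO tumour above every WT tumour were 3, and 3 to 8 with 1 tumour left out (8 without KO F, 6 without WT B) and 10 with WT D and E only. With all tumours this held for 1.59% of all genes tested. That share was not counted in the other settings, where fewer tumours make separation more frequent for any gene, so nothing is read from these counts. Over all genes, 3 were called higher and 0 lower. These counts were 39 and 6 without a filter, 7 and 1 with the replicate block, 593 and 896 by DESeq2, 40 and 6 by limma, and 0 to 608 and 0 to 1248 with 1 tumour left out (203 and 651 without WT D, 30 and 2 without KO F, 608 and 1248 without WT E). Further, 0 were called higher with at least 10 counts in every tumour or with the ribosomal RNA covariate, and 3 were called lower with WT D and E only. The cause of these differences was not tested. Same-letter tumours did not deviate together (r from -0.135 to 0.118, with only letter A best matched to itself). So few pairs cannot decide whether the letters mark a shared litter, cage or day. Of the 45 pairs of genes, 44 passed for r, and 45 with a pseudocount of 0.1 or on the deposited signal. Of the 10 genes most like the set, 6 were kept with a pseudocount of 0.1 and, in alternatives chosen after seeing the data, 3 without KO F and 6 without WT B. Fcnb did not pass the filter in fits without single KO tumours A to E or at 10 counts in every tumour, and Mpo, Elane and Ctsg also gave no value in the latter. Depth limits the WT values of Fcnb, Mpo and Elane, several of which rest on 3 counts or fewer.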
